A study of Homo sapiens with 6 samples.

Results

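The genes described here are those that the deposited table assigns to the KEGG pathway Spliceosome. A row belonged when its KEGG annotation named that pathway, its symbol did not start with HSPA and its transcript types included no pseudogene. Of 133 rows with the annotation, 6 were HSPA chaperone genes and 0 were pseudogenes, which left 127 of 38170 features, 10 of them on chromosome 2. Total RNA came from A549, a line of human lung carcinoma cells, which overexpressed the long non-coding RNA LOC401312 or carried an empty vector, with 3 libraries per group. LOC401312 was introduced with piggyBac, a transposon that inserts its cargo into the genome, and the control cells were transfected with the empty vector. Whether the lines were pools or single clones is not stated. Groups follow the sample titles, since the genotype field of LOC401312 replicates 2 and 3 reads LOC401313 and LOC401314.

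The spliceosome removes introns from precursor messenger RNA. It is built from small nuclear ribonucleoproteins (snRNPs), each a small nuclear RNA with its proteins, named U1, U2, U4, U5 and U6. U1 marks the start of an intron and U2 its branch point, the U4/U6.U5 tri-snRNP then joins, and the Prp19 complex and a series of RNA helicases help to activate and remodel the assembly. SR proteins and hnRNPs bind exons and introns and steer the choice of splice sites, and the exon junction complex (EJC) and the export complex TREX stay on the spliced product.

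The RNA at the centre of the machine had 1 member. RNU6-1 encodes U6 snRNA, which pairs with the start of the intron in the active spliceosome. No library held a count for it, which allows at most 0.0492 CPM (counts scaled to a common library total) in the smallest library at a floor of 3 counts. U6 has many near-identical genomic copies, so a count of this entry alone would be uncertain. The floor covers reads assigned to this entry and does not bound U6 RNA in the cells. The readthrough entry ISY1-RAB43 also had 0 counts in every library, and the testis paralogue RBMXL2 had 4 counts in vector replicate 1 and 0 in the others. The other 124 members had enough counts to be tested.

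Promoters of the chromosome 2 members are shown next, because the members there were lower together. The 3 with the smallest p in the comparison below are printed, each as 300 bases on the strand of the gene (RefSeq, GRCh38.p14). They are HNRNPA3 (chr2:177212544-177212843, plus strand), PCBP1 (chr2:70087227-70087526, plus strand) and SF3B6 (chr2:24076277-24076576, minus strand). Capitals mark the ETS core CCGGAAG and the E-box CACGTG, searched on both strands.
HNRNPA3: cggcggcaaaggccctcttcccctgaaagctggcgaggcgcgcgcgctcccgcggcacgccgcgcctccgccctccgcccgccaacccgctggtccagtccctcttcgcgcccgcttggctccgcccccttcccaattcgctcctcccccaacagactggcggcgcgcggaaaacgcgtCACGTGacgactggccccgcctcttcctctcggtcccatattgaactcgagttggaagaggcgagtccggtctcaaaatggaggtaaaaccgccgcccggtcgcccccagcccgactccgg
PCBP1: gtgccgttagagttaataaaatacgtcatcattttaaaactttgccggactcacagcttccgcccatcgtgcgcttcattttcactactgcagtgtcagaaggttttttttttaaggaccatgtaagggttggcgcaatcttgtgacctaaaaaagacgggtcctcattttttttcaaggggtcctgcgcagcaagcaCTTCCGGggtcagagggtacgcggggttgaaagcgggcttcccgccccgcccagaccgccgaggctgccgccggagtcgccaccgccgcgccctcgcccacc
SF3B6: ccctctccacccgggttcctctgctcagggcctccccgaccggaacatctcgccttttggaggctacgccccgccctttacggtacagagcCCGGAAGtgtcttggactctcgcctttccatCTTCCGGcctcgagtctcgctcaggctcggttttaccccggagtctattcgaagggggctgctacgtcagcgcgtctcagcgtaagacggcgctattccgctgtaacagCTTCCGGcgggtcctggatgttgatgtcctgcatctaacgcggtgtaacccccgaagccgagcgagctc
The HNRNPA3 window held the E-box and no ETS core, the PCBP1 window 1 kind of motif, the ETS core, and the SF3B6 window the ETS core more than once. Of 109 members matched to a promoter by symbol, 49 held the ETS core (45%), against 10.7% of all 27305 promoters and 23.3% of the 4871 promoters of well-expressed genes. FPKM is the fragment count scaled for transcript length and library total, and well expressed means here an FPKM of at least 5 averaged over all libraries. It was held by 8 of 15 matched members that fell and by 40 of 92 that were not called. The E-box was held by 9 of the 109 members (8.26%), against 7.43% of all promoters and 11.3% of the well-expressed ones. The palindromic NRF1 motif, also searched, was held by 3 members (2.75%), against 1.36% of all promoters and 2.5% of the well-expressed ones. These shares are a description only.

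The library totals were 65823845 to 70202062 counts for LOC401312 and 60971105 to 73994619 for vector. The STEAP1B entry, whose annotated span covers that of LOC401312, had 94628, 92527 and 90297 counts in the LOC401312 libraries and 9, 11 and 23 in the vector libraries, so all 6 titles matched their content. CPS1, the gene named in the study's title and itself on chromosome 2, had 8884, 8266 and 8074 counts in LOC401312 and 4355, 3374 and 3630 in vector (log2 change 1.08, adjusted p = 1.04e-06). All 8 epithelial and A549 markers looked at were detected, with a summed 16450 to 16880 CPM in LOC401312 and 16780 to 17640 CPM in vector. Markers of other cell types were low, but 3 of these lists differed between libraries. The 8 placental markers summed to 1.57, 97.3 and 94.9 CPM in LOC401312 replicates 1, 2 and 3 and to 0.811 to 1.71 CPM in vector. The 7 urothelial markers summed to 3.05 to 3.74 CPM in LOC401312 and 8.89 to 12.7 CPM in vector, and the 7 fibroblast and endothelial markers to 17.4 to 18.5 CPM and 23.9 to 32.9 CPM. The 6 haematopoietic markers summed to 12.1 to 13.6 CPM in LOC401312 and 10.5 to 17.7 CPM in vector, and 0 markers of any list were at 0 in all libraries. The part of these cells or transcripts in the results below was not tested.

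Spliceosome genes were, where they differed, lower in LOC401312, and the lowest lay on chromosome 2. Of 124 tested members, 17 fell and 0 rose at an adjusted p of 0.05 (edgeR quasi-likelihood test, Benjamini-Hochberg over all 19620 features tested), while 107 were not called. Over all features tested 4.58% were called lower and 4.13% higher, and the members' share called lower was 13.7%. Members are abundant, and abundant genes were called more often: of the well-expressed features, 9.29% were lower and 5.67% higher, against 16 lower and 0 higher of 109 such members (14.7%). The median log2 change, LOC401312 over vector, was -0.04 over the members and -0.001 over all features tested. A negative value was found for 82 of 124 members (66.1%), against 50.1% of all features tested. For the 109 well-expressed members the median was -0.051 and 67% were negative. For well-expressed features the median was -0.016 and 55.5% were negative. The largest fall was 0.45 on the log2 scale, a 0.73-fold level, so every called change was small. In bulk RNA, less RNA per cell and fewer cells of a type cannot be told apart.

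The number called depended on the libraries and the tool. It was 9, 6 and 8 lower and 0 higher without LOC401312 replicate 1, 2 and 3, where 2.68%, 2.15% and 2.58% of all features were lower and 2.31%, 1.93% and 2.09% higher. Without vector replicate 1 it was 26 lower and 1 higher, against 5.13% and 4.74% of all features. Without vector replicate 2 it was 12 lower and without vector replicate 3 it was 10, both with 0 higher, against 2.82% and 2.39% of all features lower and 2.65% and 2.04% higher. Without LOC401312 replicates 2 and 3, 1 was lower and 0 higher, against 0.415% and 0.383% of all features; that fit holds 1 LOC401312 library, which is assumed to vary as the vector libraries do. DESeq2 called 28 lower and 2 higher, against 6.64% and 6.36% of all features. Limma on the deposited FPKM values called 5 lower and 8 higher, against 1.57% and 8.35%, on values in which the median well-expressed feature was shifted by 0.109.

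**Figure D1:**
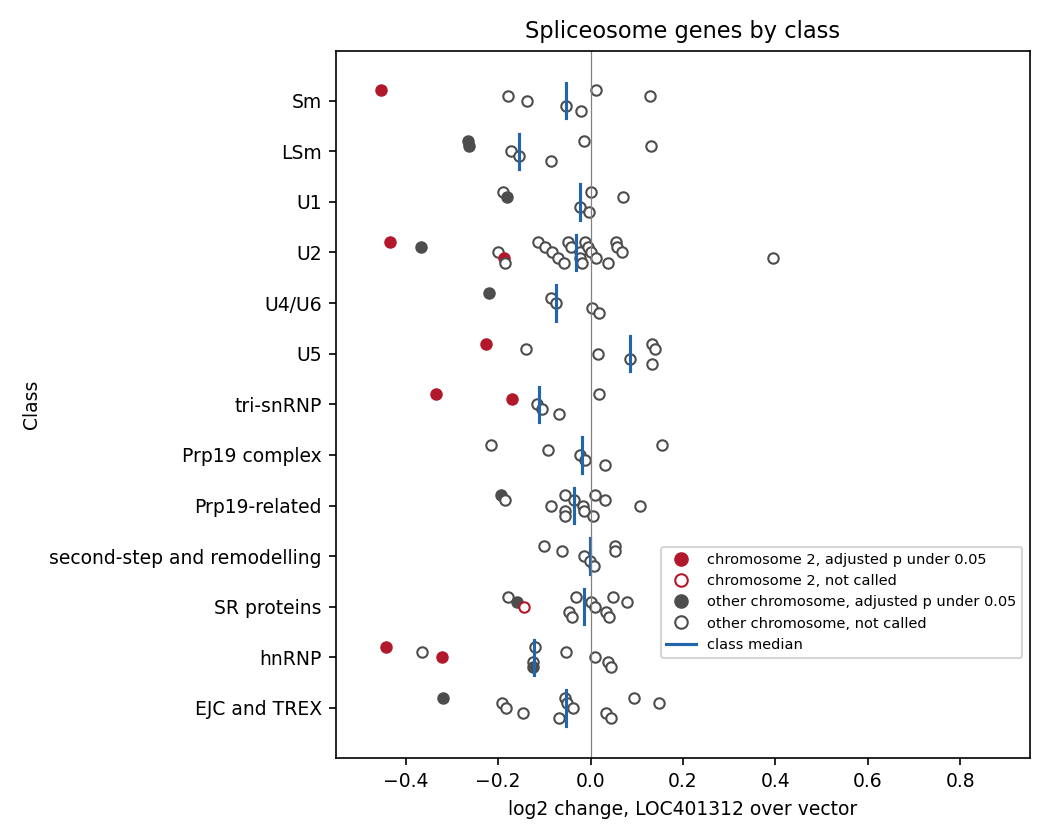
Log2 change, LOC401312 over vector, of the tested spliceosome genes in each class, with 1 point per gene (1 gene is not drawn), filled where the adjusted p is under 0.05, red for chromosome 2, and a blue line at the class median. Of the 17 filled points, 8 are red, and all lie left of 0; the point at 0.40 is U2AF1, whose reads are split with a copy.

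The members on chromosome 2 were set against those elsewhere. All 10 of them had a negative log2 change, with a median of -0.274 and -0.45 as the lowest, and 8 fell. Of the 114 members on other chromosomes 9 fell and 0 rose, and their median was -0.023. This followed the level of the chromosome. Over all 1285 tested features of chromosome 2, 27.1% were called lower and 1.32% higher, with a median of -0.229. Of its 398 well-expressed features 60.6% were lower and 1.51% higher, with a median of -0.238. A negative value was found for 80.5% of its tested features and 93.7% of its well-expressed ones. All 10 members there were well expressed. On the other chromosomes 3.01% of 18335 features were lower and 4.33% higher, with a median of 0.009. Of the 5738 well-expressed ones 5.73% were lower and 5.96% higher, against 8 lower and 0 higher of 99 such members (8.08%). The median was -0.008 for these features and -0.035 for these members.

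By library, the median deviation of the 10 chromosome 2 members from their mean over all libraries was -0.138, -0.119 and -0.153 in the LOC401312 libraries and 0.147, 0.177 and 0.113 in the vector libraries (log2 CPM). No LOC401312 library overlapped a vector library. All 398 well-expressed chromosome 2 features gave -0.132, -0.113 and -0.121 in LOC401312 and 0.117, 0.129 and 0.116 in vector. For the 114 other members the medians were -0.022, 0.003 and -0.029 in LOC401312 and -0.004, 0.052 and 0.017 in vector, so the groups overlapped. Together the 10 members took 0.183%, 0.185% and 0.183% of all counts in LOC401312 and 0.223%, 0.223% and 0.217% in vector.

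**Figure D2:**
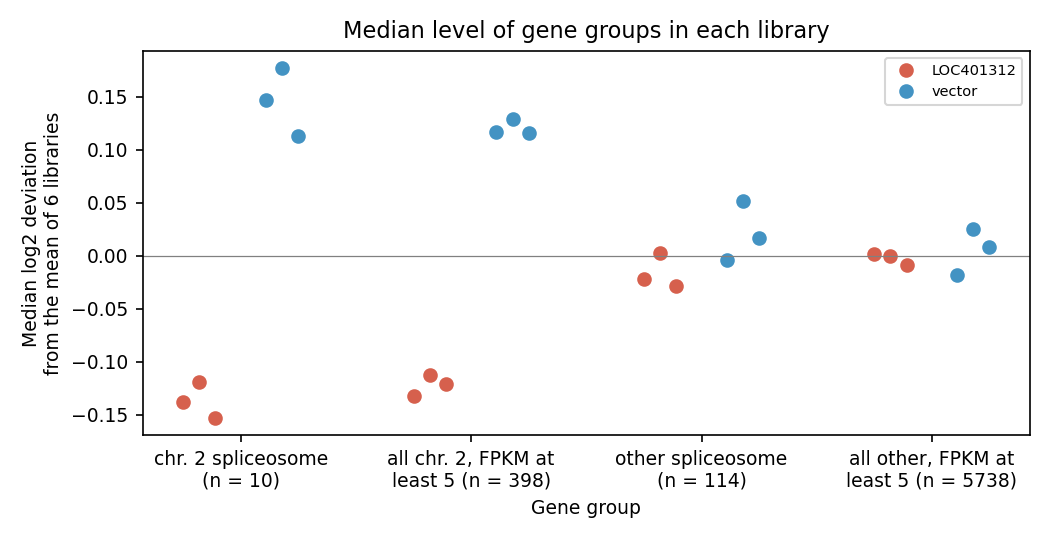
Median log2 deviation from the mean of the 6 libraries (y axis) in each library, as 1 point per library, for spliceosome genes on chromosome 2 and elsewhere and for all well-expressed genes. The chromosome 2 spliceosome genes lie at -0.153 to -0.119 in LOC401312 and at 0.113 to 0.177 in vector.

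When each chromosome's median was removed from each library, 1 of the 10 chromosome 2 members was still called lower, HNRNPA3 (-0.21, adjusted p = 0.00686), and their median was -0.045; of all chromosome 2 features 2.88% were then lower and 4.51% higher. The median of the other members was then -0.041. In that fit 2.62% of all features were lower and 3.48% higher, against 10 lower and 0 higher among the 124 members. The 10 include U2AF1L5 (adjusted p = 0.0359), whose reads are split with a copy. The share of well-expressed features called was not taken in that fit, so the members' abundance is not allowed for. SNRNP200, SF3B1, USP39 and SRSF7 were then at 0.00, 0.04, 0.06 and 0.08, none of them called.

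**Figure D3:**
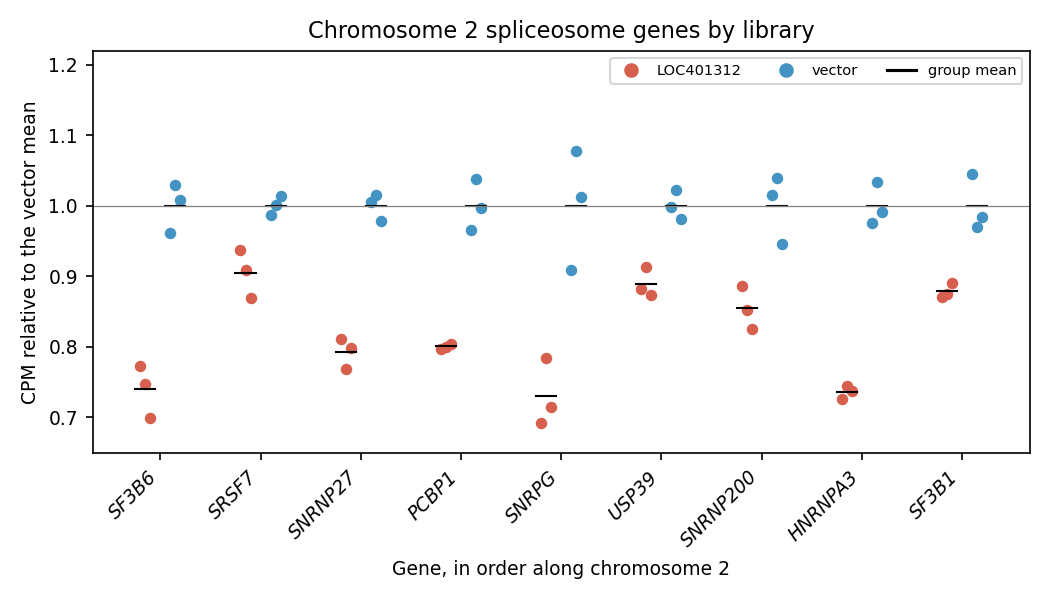
CPM of 9 chromosome 2 spliceosome genes relative to its vector mean (y axis), with 1 point per library and a line at each group mean, in the order of the genes along the chromosome. LOC401312 points lie below all vector points for each of these 9 genes.

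The counts by class below stand beside 4.58% of all tested features lower and 4.13% higher. Of well-expressed features 9.29% were lower and 5.67% higher. The classes are small, and none was tested as a set. Sm proteins form the ring around U1, U2, U4 and U5 RNA. Of 7 Sm genes 1 fell, SNRPG on chromosome 2, and 0 rose. SNRPG, which encodes SmG, had 63.6, 72.0 and 65.6 CPM in LOC401312 and 83.5, 99.0 and 93.1 CPM in vector, without overlap, a log2 change of -0.45 (SE 0.07, adjusted p = 0.00318). SNRPB (SmB/B') had the highest FPKM of the whole pathway, 213 on average. It averaged 322 ± 15.2 CPM in LOC401312 and 327 ± 16.5 CPM in vector (SD, n = 3 each), at -0.02 (SE 0.05). By CPM HNRNPA1 was higher, at 1286 in LOC401312 and 1278 in vector, with 211 FPKM. The remaining Sm genes lay between -0.18 (SNRPE) and 0.13 (SNRPF), none called, so the ring's members did not move by one amount.

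LSm proteins form the ring on U6. Of 7, LSM3 and LSM5 fell and 0 rose. The class median, -0.154, was the lowest of the 13 classes. It was -0.001 over all features tested and -0.016 over the well-expressed ones. LSM3 had 50.1, 45.8 and 49.9 CPM in LOC401312 and 57.2, 57.7 and 60.2 CPM in vector (log2 change -0.26, SE 0.05, adjusted p = 0.0109). LSM5 had 44.4, 45.3 and 45.1 CPM in LOC401312 and 49.3, 54.7 and 58.0 CPM in vector (-0.26, SE 0.06, adjusted p = 0.0243). Both were lower in every LOC401312 library than in any vector library. LSM3 lost its call without LOC401312 replicate 2 or vector replicate 3 (adjusted p up to 0.0711) and LSM5 on removal of each library except vector replicate 1 (up to 0.0963). The most abundant LSm gene, LSM4, averaged 89.2 CPM in LOC401312 and 99.3 CPM in vector and was not called (-0.15, SE 0.07, adjusted p = 0.227), except without vector replicate 1 (-0.24, adjusted p = 0.0105).

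Of 7 U1 genes, SNRNP70, the U1-70K protein that binds the RNA's first stem-loop, fell and 0 rose. It had 298, 302 and 291 CPM in LOC401312 and 314, 347 and 349 CPM in vector (-0.18, SE 0.05, adjusted p = 0.0406). It stayed called only when vector replicate 1 was the library removed (adjusted p otherwise up to 0.163). SNRPA, which also binds U1 RNA, had a slightly larger but more variable difference, with 96.4 ± 4.08 CPM in LOC401312 and 110 ± 7.33 CPM in vector (SD, n = 3 each; -0.19, adjusted p = 0.0708), and it was called lower without vector replicate 1 (-0.24, adjusted p = 0.0131) and with chromosome medians removed (adjusted p = 0.0348).

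The U2 class was the largest, with 24 genes, of which SF3B6, SF3B1 and U2AF1L5 fell and 0 rose. SF3B6, the p14 subunit that lies near the branch point, had 54.4, 52.7 and 49.3 CPM in LOC401312 and 67.7, 72.5 and 71.0 CPM in vector (-0.43, SE 0.05, adjusted p = 0.000851). SF3B1, the scaffold of the SF3b complex and a gene often mutated in blood cancers, had 264, 265 and 270 CPM in LOC401312 and 317, 294 and 299 CPM in vector (-0.19, SE 0.04, adjusted p = 0.0177). Both lie on chromosome 2, and their groups did not overlap. The SF3b subunits encoded elsewhere were not called: SF3B2 was at -0.11, SF3B3 at 0.07, SF3B4 at -0.01, SF3B5, the most abundant U2 gene by FPKM, at -0.05 and PHF5A at -0.18. SF3B1 lost its call without any LOC401312 library or without vector replicate 3 (adjusted p up to 0.0836).

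U2AF1 encodes the small subunit of U2AF, which reads the AG at the end of the intron, and U2AF1L5 is a second annotated copy of it on chromosome 21. The copies can hardly be told apart by sequence: GENCODE transcripts of 1019 bases from each differ at 1 position (A20C, the U2AF1 base first, counted from the transcript's 5' end), a pair of 1675 bases at 2, and a pair of 338 bases at 0. U2AF1L5 had 49.1, 49.2 and 45.2 CPM in LOC401312 and 70.9, 58.1 and 55.8 CPM in vector, and was called lower (-0.37, SE 0.08, adjusted p = 0.024). U2AF1 went the other way, with 45.4, 45.6 and 44.5 CPM in LOC401312 and 21.4, 41.1 and 40.7 CPM in vector (0.40, SE 0.19, adjusted p = 0.264). Vector replicate 1 stood apart in both entries, high in one and low in the other. Summed, the entries had 94.5, 94.7 and 89.7 CPM in LOC401312 and 92.4, 99.2 and 96.4 CPM in vector, with a log2 change of -0.05 (SE 0.05, adjusted p = 0.629). The fall of U2AF1L5 alone is thus uncertain, and its call was also lost without any LOC401312 library (adjusted p up to 0.11).

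**Figure D4:**
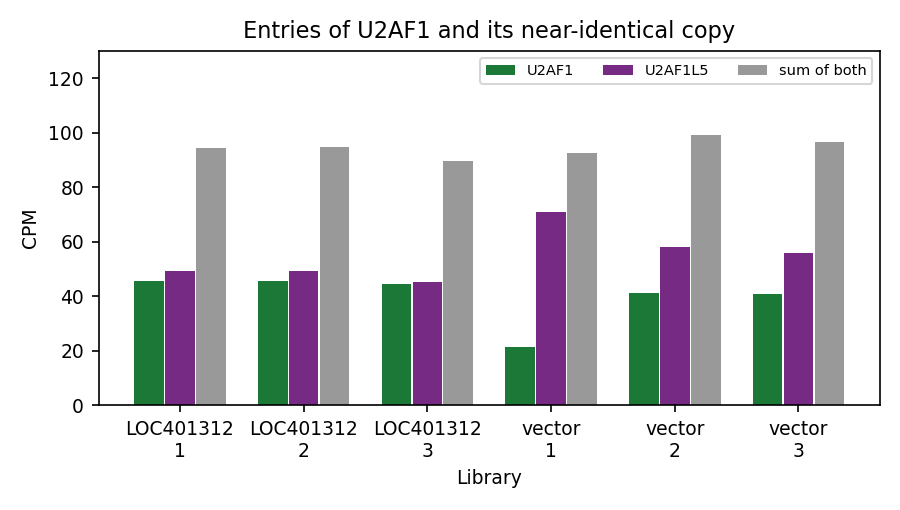
CPM (y axis) of the entries U2AF1 and U2AF1L5 and of their sum in each library, as bars. The sum lies between 89.7 and 99.2 CPM in all 6 libraries, while the split between the entries differs most in vector replicate 1.

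Of 5 U4/U6 genes PRPF4, a tri-snRNP assembly protein on chromosome 9, fell. It had 102, 94.8 and 98.5 CPM in LOC401312 and 114, 116 and 114 CPM in vector (-0.22, SE 0.04, adjusted p = 0.0109), and the call was lost without LOC401312 replicate 2 (adjusted p = 0.0759). PRPF31, the most abundant of the class by FPKM, was at 0.02 (SE 0.06), and its sign turned without LOC401312 replicate 1 (-0.01) or vector replicate 1 (-0.04).

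U5 was the 1 class with a positive median (0.086), although its only called member fell. SNRNP200, the Brr2 helicase that unwinds U4 from U6, lies on chromosome 2 and had 337, 324 and 314 CPM in LOC401312 and 386, 395 and 360 CPM in vector (-0.23, SE 0.05, adjusted p = 0.0132). PRPF8, the large scaffold beside the active site and the most abundant U5 gene, averaged 826 ± 20.8 CPM in LOC401312 and 778 ± 45.1 CPM in vector (SD, n = 3 each), with overlapping libraries (0.09, adjusted p = 0.302). PRPF6 and the helicase DDX23 were each at 0.13, with adjusted p of 0.0904 and 0.0712, and neither overlapped between groups. These 2 were called higher with DESeq2, total-count scaling, the fit restricted to well-expressed features and limma on FPKM, with library medians equalised or not. With chromosome medians removed DDX23, on chromosome 12, was at 0.02 (adjusted p = 0.87) and PRPF6 was not called either (adjusted p = 0.176), and the class median was 0.017. SNRNP200 lost its call without LOC401312 replicate 2 or 3 or vector replicate 2 (adjusted p up to 0.066).

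Of 6 genes placed by hand in a tri-snRNP class, SNRNP27 and USP39 fell, both on chromosome 2. SNRNP27 had 27.6, 26.2 and 27.2 CPM in LOC401312 and 34.3, 34.6 and 33.4 CPM in vector (-0.33, SE 0.06, adjusted p = 0.00591). USP39, a ubiquitin-protease-like assembly factor, had 96.2, 99.6 and 95.2 CPM in LOC401312 and 109, 111 and 107 CPM in vector (-0.17, SE 0.04, adjusted p = 0.032). Neither overlapped between groups, but of the 6 removals of 1 library USP39 stayed called in 1, that of vector replicate 1 (adjusted p up to 0.124). ZMAT2, the most abundant of the class by FPKM, was at -0.12 (SE 0.07, adjusted p = 0.363).

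The core of the Prp19 complex showed no call among 6 genes. PRPF19, the ubiquitin ligase that names it, averaged 162 CPM in LOC401312 and 165 CPM in vector (-0.02, SE 0.04), and BCAS2 had the largest difference (-0.22, SE 0.08, adjusted p = 0.116). Of 13 tested Prp19-related genes PPIL1, a cyclophilin, fell, with 45.1, 45.5 and 44.4 CPM in LOC401312 and 52.0, 52.9 and 49.5 CPM in vector (-0.19, SE 0.05, adjusted p = 0.0305). Its call was lost without any LOC401312 library or vector replicate 2 (adjusted p up to 0.119). SNW1, the most abundant of that class by FPKM, was at -0.06 (SE 0.05). None of 7 genes of the second step and remodelling was called; DDX5, an abundant helicase, was at 0.05 (SE 0.03, adjusted p = 0.393) and PRPF18 at -0.10 (SE 0.08).

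Of 12 SR proteins and relatives SRSF2, a general activator of exon inclusion, fell, with 252, 254 and 251 CPM in LOC401312 and 279, 282 and 285 CPM in vector (-0.16, SE 0.03, adjusted p = 0.018). The groups did not overlap, yet the call was lost without any LOC401312 library or vector replicate 3 (adjusted p up to 0.0866). SRSF7, on chromosome 2, had 146, 142 and 136 CPM in LOC401312 and 154, 156 and 158 CPM in vector and was not called (-0.14, SE 0.04, adjusted p = 0.0642), though DESeq2 called it (adjusted p = 0.0132). TRA2A had the largest difference of the class (-0.18, SE 0.05, adjusted p = 0.0642), and it was called lower with DESeq2 (adjusted p = 0.0301) and without vector replicate 2 (-0.23, adjusted p = 0.0372).

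Among the hnRNPs, the most abundant class per length, HNRNPA3, PCBP1 and HNRNPK fell of 10 tested and 0 rose. HNRNPA3 (chr2:177212563-177223958, plus strand), a relative of hnRNP A1, had 421, 432 and 428 CPM in LOC401312 and 566, 600 and 575 CPM in vector. Its log2 change of -0.44 (SE 0.04, adjusted p = 9.09e-05) was the one with the smallest p of all members. PCBP1 (chr2:70087477-70089203, plus strand), a poly(C)-binding protein, had 292, 293 and 294 CPM in LOC401312 and 353, 380 and 364 CPM in vector (-0.32, SE 0.04, adjusted p = 0.000814). Both stayed called on leaving out any 1 library, as did SF3B6, SNRPG, SNRNP27 and THOC3. HNRNPK, on chromosome 9, had 641, 656 and 664 CPM in LOC401312 and 702, 729 and 706 CPM in vector (-0.12, SE 0.03, adjusted p = 0.0499), and likewise stayed called in 1 removal alone, that of vector replicate 1 (adjusted p up to 0.17). HNRNPA1, the most abundant hnRNP, averaged 1286 ± 6.18 CPM in LOC401312 and 1278 ± 20.1 CPM in vector (SD, n = 3 each; 0.01, SE 0.03); with its near copy HNRNPA1L2 added it was at 0.01 (adjusted p = 0.939). Its sign turned without vector replicate 1 (-0.0034) and with chromosome medians removed (-0.11), in neither case with a call.

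Of 12 EJC and TREX genes THOC3, a TREX subunit on chromosome 5, fell and 0 rose. It had 50.5, 51.8 and 46.7 CPM in LOC401312 and 63.3, 58.9 and 63.7 CPM in vector, without overlap (-0.32, SE 0.06, adjusted p = 0.0061). It stayed called with chromosome medians removed (-0.34, adjusted p = 0.00578). ALYREF, the most abundant of the class by FPKM, was at 0.04 (SE 0.07).

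Chromosomes 9 and 12, whose genes as a whole were lower and higher, held 3 and 7 tested members. On chromosome 9 PRPF4 and HNRNPK fell and the cap-binding NCBP1 was at -0.15 (adjusted p = 0.0637), against 8.96% of the 792 tested features of that chromosome called lower and 1.77% higher. With chromosome medians removed neither was called, PRPF4 at -0.13 (adjusted p = 0.0928) and HNRNPK at -0.04 (adjusted p = 0.583). On chromosome 12 none of the 7 was called, against 11.1% of 1069 features called higher and 0.748% lower. There the members' median was 0.094 and that of all tested features 0.127. Outside chromosomes 2, 9 and 12, 7 of 104 members fell (6.73%) and 0 rose, against 2.87% and 4.01% of 16474 features, and the members' median was -0.033 against 0.007. These 7 include U2AF1L5, whose fall alone is uncertain. Shares of well-expressed features were not taken for this set, nor for chromosome 9 or chromosome 12. The members' abundance is thus not allowed for in these 3 comparisons. For all chromosomes other than 2, 8.08% of well-expressed members were lower, against 5.73% of well-expressed features.

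Separation of the groups was also counted. For 33 of 124 members every LOC401312 library lay below every vector library, and for 11 above, against 13.9% and 14% of all features tested. Of 109 well-expressed members 32 lay below and 10 above, against 21.1% and 15.4% of well-expressed features. On chromosome 2 it was 9 of 10 below and 0 above, against 47.3% and 4.12% of its tested features, or 78.6% and 3.27% of its well-expressed ones. On the other chromosomes it was 24 of 114 below and 11 above, against 11.6% and 14.7% of all their features, or 17.1% and 16.2% of the well-expressed ones.

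Genes around the pathway were read from lists of splicing genes that KEGG does not include. Their counts below stand beside 4.58% of all tested features lower and 4.13% higher. On chromosome 2, 27.1% of tested features were lower, and 60.6% of the well-expressed ones. Of 14 tested genes of the minor spliceosome, which removes a rare class of introns, CRIPT fell (-0.34, SE 0.08, adjusted p = 0.0284). Of 38 genes of snRNP assembly and snRNA maturation SSB, the La protein, fell, with 142 CPM in LOC401312 and 181 CPM in vector (-0.36, SE 0.05, adjusted p = 0.0015), and so did GEMIN6, a subunit of the SMN complex (-0.43, SE 0.06, adjusted p = 0.00225). Of 9 SR protein kinases CLK1 fell (-0.41, SE 0.07, adjusted p = 0.00528). These 4 genes all lie on chromosome 2, and none was called with chromosome medians removed (adjusted p from 0.0835 to 0.501). The 3 other chromosome 2 genes of the lists, XPO1, HNRNPLL and TIA1, were at -0.16, -0.13 and -0.09 and not called. Of 33 tested splicing regulators outside the pathway RBM4 fell (-0.21, SE 0.05, adjusted p = 0.0302), on chromosome 11, and stayed called (adjusted p = 0.0445). No gene of the 4 lists rose, and their medians were -0.042, -0.017, 0.004 and -0.004.

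Levels, compared per length as FPKM averaged over all libraries, spread widely within most classes. The lengths implied by the deposited values, such as 20459 bases for LSM8, need not be those of the transcripts expressed. Ranks by FPKM, here and above, rest on these lengths. The hnRNPs had the highest class median, 42.8 FPKM, followed by U5 (26.3), SR proteins (25.1) and Sm proteins (22.3). The lowest were the second-step and remodelling factors (9.23), the Prp19-related factors (9.27) and the Prp19 core (10.0). On a log scale the spread within most classes was wider than that between the class medians. It ran from 12.5 to 213 FPKM for Sm genes and from 1.15 (PRPF40B) to 56.5 FPKM (SNRNP70) for U1 genes. For U4/U6 genes it was narrower, from 11.1 to 41.4 FPKM.

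**Figure D5:**
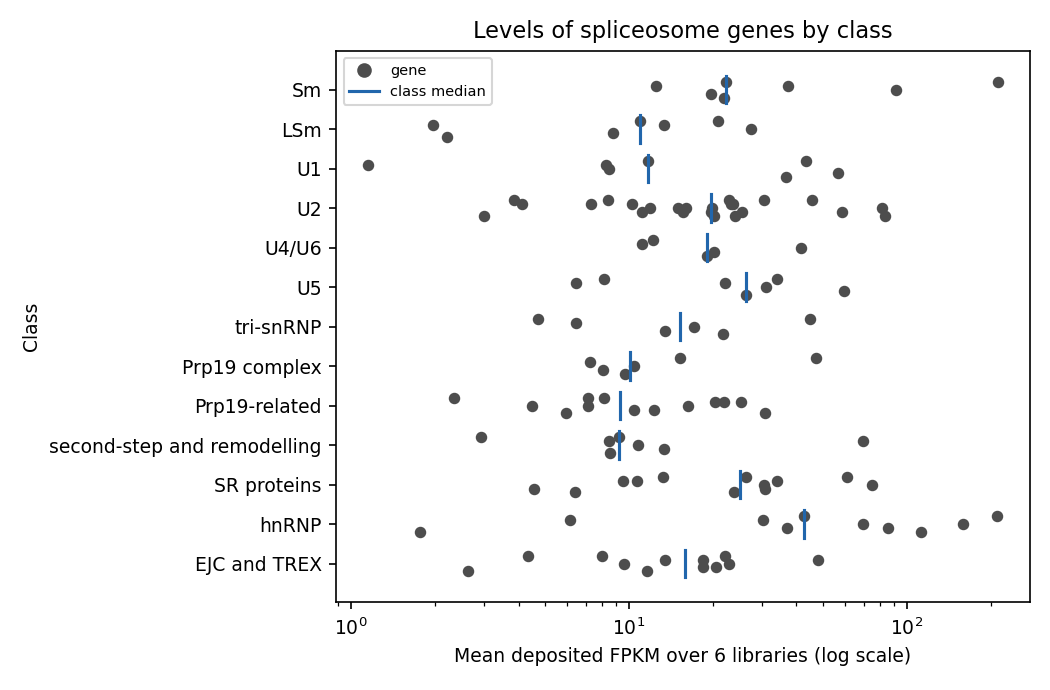
Mean deposited FPKM over the 6 libraries (x axis, log scale) of each spliceosome gene by class, with a blue line at the class median; members under 0.1 FPKM are not drawn. SNRPB (213 FPKM) and HNRNPA1 (211 FPKM) are the highest points.

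The log2 change tended to be higher where the length implied by the deposited counts and FPKM was larger. That length is relative and need not be the length of the transcripts these cells express. Across the 124 tested members the Spearman correlation of the log2 change with the relative length implied by the deposited counts and FPKM was 0.324 (Pearson 0.328 on log10 length). It was 0.339 for the 114 members off chromosome 2 and 0.238 for the 6136 well-expressed features. All points share the same 6 libraries, so no p is given. The 31 shortest members had a median of -0.116 and the 31 longest -0.015, against -0.068 and 0.022 for the 1534 shortest and the 1534 longest well-expressed features.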

How the data were processed

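RNA-seq values for 6 A549 libraries came from 1 table. The authors deposited raw counts, whole numbers with no scaling, and FPKM values, which divide by transcript length and library size, per the file headers. The submitters' processing notes name cutadapt 1.9, FastQC and the build GRCh38 (hg38). No source used here gives the aligner, counter, annotation release or strand setting, so reads of overlapping genes on opposite strands may have been mixed.

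Counts were tested with edgeR 4.0.16 (R 4.3.3; quasi-likelihood, TMM, filterByExpr, group as the only term, Benjamini-Hochberg, threshold 0.05). Standard errors are the log2 change over the square root of F. CPM uses TMM-adjusted totals, except for marker sums, which use plain totals. The biological coefficient of variation was 17%. Simulated counts with 200 changed genes were used to test the code. Every pair of replicates differed beyond counting noise (chi-square divided by its degrees of freedom, 13.96 to 23.15, features averaging at least 50 counts). Separate cultures are not stated, so the p-values cover just the spread of these libraries, possibly technical. Floors and intervals cover counting error only.

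Other settings were DESeq2 1.42.0, limma 3.58.1 on log2(FPKM + 0.1), other scalings and filters, a replicate block, chromosome medians removed (as offsets, from features averaging at least 4 CPM) and left-out libraries. Equalised FPKM medians and summed copies were added after seeing the data. Members, classes and lists were chosen with earlier results of these data known. Classes were assigned by hand, and RP9 was left without one. Genes named are every called member, those of chromosome 2 (results for 1 of them, and 1 sequence, are not reported here), the most abundant and most changed of each class, and up to 3 called per other list; the rest were chosen after their values were seen. Of 127 members, all 127 lay on the same chromosome in GENCODE release 29 as in the table, 113 with both ends within 1000 bases.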

Additional observations from a re-analysis of the deposited data

How the results depend on the processing

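Of the 33 named genes' 529 values under other settings, 398 kept their direction and side of the threshold, 98 were no longer called, 8 became called and 25 changed sign; no called gene changed sign with a call. The count of 17 lower and 0 higher became 28 and 2 with DESeq2, 14 and 2 with total-count scaling (3.84% and 5.09% of all features), 10 and 0 with no filter on low counts (1.73% and 1.76%), 18 and 2 of 109 when the model was refitted on well-expressed features alone (10.1% and 8.95%), 5 and 8 with limma on FPKM, 13 and 2 with FPKM library medians equalised (3.27% and 3%), and 10 and 0 with chromosome medians removed. Over single left-out libraries it ranged over 6 to 26 lower and 0 to 1 higher, and without LOC401312 replicates 2 and 3, with the spread taken from the vector libraries alone, it was 1 lower. Medians moved to 0.083 (all members), -0.147 (chromosome 2) and 0.102 (other) with limma on FPKM, and to -0.045 (chromosome 2) with chromosome medians removed. The replicate block gave 10 lower (2.95% of all features). Same-numbered libraries correlated at -0.154, -0.032 and -0.057, and 0 of 3 LOC401312 libraries correlated best with their own number. No pairing by number was seen. With 3 libraries per group, this check cannot decide whether the numbers pair the samples.

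Log2 changes that turned sign were SNRPB 0.0039 and PRPF19 0.0015 with total-count scaling. With limma on FPKM they were HNRNPK 0.0022, SNRPB 0.1052, SF3B5 0.0830, ZMAT2 0.0079, PRPF19 0.1035, SNW1 0.0701 and PRPF18 0.0234. With chromosome medians removed they were SNRNP200 0.0021, SF3B1 0.0419, USP39 0.0594, SRSF7 0.0849 and HNRNPA1 -0.1072. Over single left-out libraries SNRPB ranged from -0.0552 to 0.0181, SF3B5 from -0.1477 to 0.0070, PRPF31 from -0.0425 to 0.0685, PRPF19 from -0.061 to 0.0047, HNRNPA1 from -0.0034 to 0.0197 and ALYREF from -0.0172 to 0.0987. Without LOC401312 replicates 2 and 3, SNRPB was at 0.0488 and SF3B5 at 0.0387. The cause was not tested, except that removing chromosome medians takes out the shift of the chromosome by construction and leaving out libraries leaves fewer samples.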
